A study of Mus musculus with 23 samples.

Results

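This comparison concerns mouse B cells activated in culture, carrying or not carrying a guide RNA against Irf8. The members are 6 of the 23 RNA-seq libraries of the series, chosen by their labels and not by any measured value. The KO group holds 3 libraries (m1, m2 and m3), labelled IRF8 KO, with sgRNA 1 against Irf8, and sorted as Thy1.1+. The WT group holds 3 libraries (m1, m2 and m3), labelled IRF8 WT, with no sgRNA, and sorted as Thy1.1-. Both groups came from naive spleen B cells cultured for 72 hours with LPS, a Toll-like receptor ligand (20 mg/ml as labelled), and with 2 cytokines, IL-2 at 20 ng/ml and IL-5 at 5 ng/ml. Both were sorted without CD11b, F4/80, Thy1.2 and CD138 on their surface and with B220 and GL7, an activation marker. The strain, age and number of animals, the promoter and vector that carried the guide, the source of Cas9, and whether a library is 1 animal or a pool are not given in the sources used here. Nor is it given whether an m number marks 1 animal or culture, so p-values measure only a spread between libraries, which may be technical.

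The other libraries of the series are 5 plasmablast libraries from the same culture conditions (2 WT, 3 KO, sorted with CD138) and 12 of naive B cells. There was no control group with a guide of another target. Loss of Irf8, carriage of a guide and the Thy1.1 sort therefore cannot be told apart in any difference between KO and WT given here.

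IRF8 belongs to the interferon regulatory factors (IRFs), a family of transcription factors. With an ETS partner, PU.1 or SPIB, it binds composite ETS-IRF elements in B cells, and it can also bind interferon-stimulated response elements with other family members. Activated B cells leave the mature B cell state for the plasmablast state through IRF4, BLIMP1 (Prdm1) and XBP1, which turn on the antibody secretion machinery, while factors such as PAX5, SPIB and BACH2 maintain the B cell state.

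Levels are given as RPKM, read numbers divided by the length of the gene and the depth of the library. Differences are KO minus WT on the log2(RPKM + 1) scale, which understates the change of genes near or below 1 RPKM. Genes at 1 RPKM or more in at least 2 of the 6 libraries were tested, 9701 in all. A gene that passed only through KO m1 and m2 could only come out higher in KO in those pairs. Tnfrsf17, Ifit1bl1 and Cd28 are such genes. Calls were made where the adjusted p was under 0.05 in limma's moderated two-sided test, adjusted by Benjamini and Hochberg over all 9701 genes. The spread behind each SE and p-value was pooled over the activated libraries compared and plasmablast m1 and m2.

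Depth differed between the libraries. An estimated 26700000 and 21900000 reads were assigned to genes in KO m1 and m2, and 24600000 and 16800000 in WT m1 and m2. The m3 libraries were the shallowest of the 6, with 9820000 in the one labelled KO and 5480000 in the one labelled WT. The B cell markers fitted the cell type label, and the plasmablast markers fitted it with 1 exception, Prdm1. All 10 activated B cell markers were listed. Ms4a1, the gene of CD20, was at 66.9 to 106 RPKM over the 6 libraries and 40.8 to 56.7 in plasmablast m1 and m2. Sdc1, the gene of CD138 and a sort marker, was at 0.226 to 0.79 RPKM in the 6 libraries and at 27.5 to 34.1 in plasmablast m1 and m2. Xbp1, Jchain, Tnfrsf17, Slamf7 and Irf4 were also lower in the 6 libraries, Irf4 at 67.6 to 103 against 122 to 143. Prdm1 overlapped, at 56.7 to 94.6 in the 6 libraries and 69.6 to 79.8 in plasmablast m1 and m2. Of markers of other cells, none of 10 for neutrophils and none of 6 for platelets were listed, and 2 of 13 for macrophages and monocytes were, Cd68 and Itgam, with summed levels of 3.94 to 7.81 RPKM. For T cells 1 of 10 was listed (Lck), for natural killer cells 1 of 9 (Prf1), for dendritic cells 3 of 9, for erythroid cells 2 of 9 and for stromal and endothelial cells 1 of 7.

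The m3 pair went against its labels in the genes that check them. Thy1, which encodes the marker used in the sort and lies on chromosome 9 (44043384 to 44048579 on GRCm38, Entrez 21838), was at 21.9 and 27.8 RPKM in KO m1 and m2 and at 0.093 in the library labelled KO m3. It was at 0.013 and 0.055 in WT m1 and m2 and at 25.7 in the library labelled WT m3. Irf8 (Entrez 15900, chromosome 8, 120736358 to 120756694) was at 69.2 and 68.1 in KO m1 and m2 and at 108 and 93.6 in WT m1 and m2. It was at 92.4 in the library labelled KO m3 and at 60.0 in the library labelled WT m3. In both genes each m3 library thus lay nearer to the m1 and m2 libraries of the opposite label. Because these 2 genes led to the m3 pair being set apart, only their levels are given here. Both stayed among the tested genes, so Thy1 is in the counts of calls below, and Irf8 was not called. The call of Thy1 was fixed by the sort, and its reversed sign at m3 was known when the pair was set apart. Labels were kept as deposited, and the results below are given for 3 pairs as labelled, for m1 and m2 alone, and for the m3 pair by itself.

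**Figure D1:**
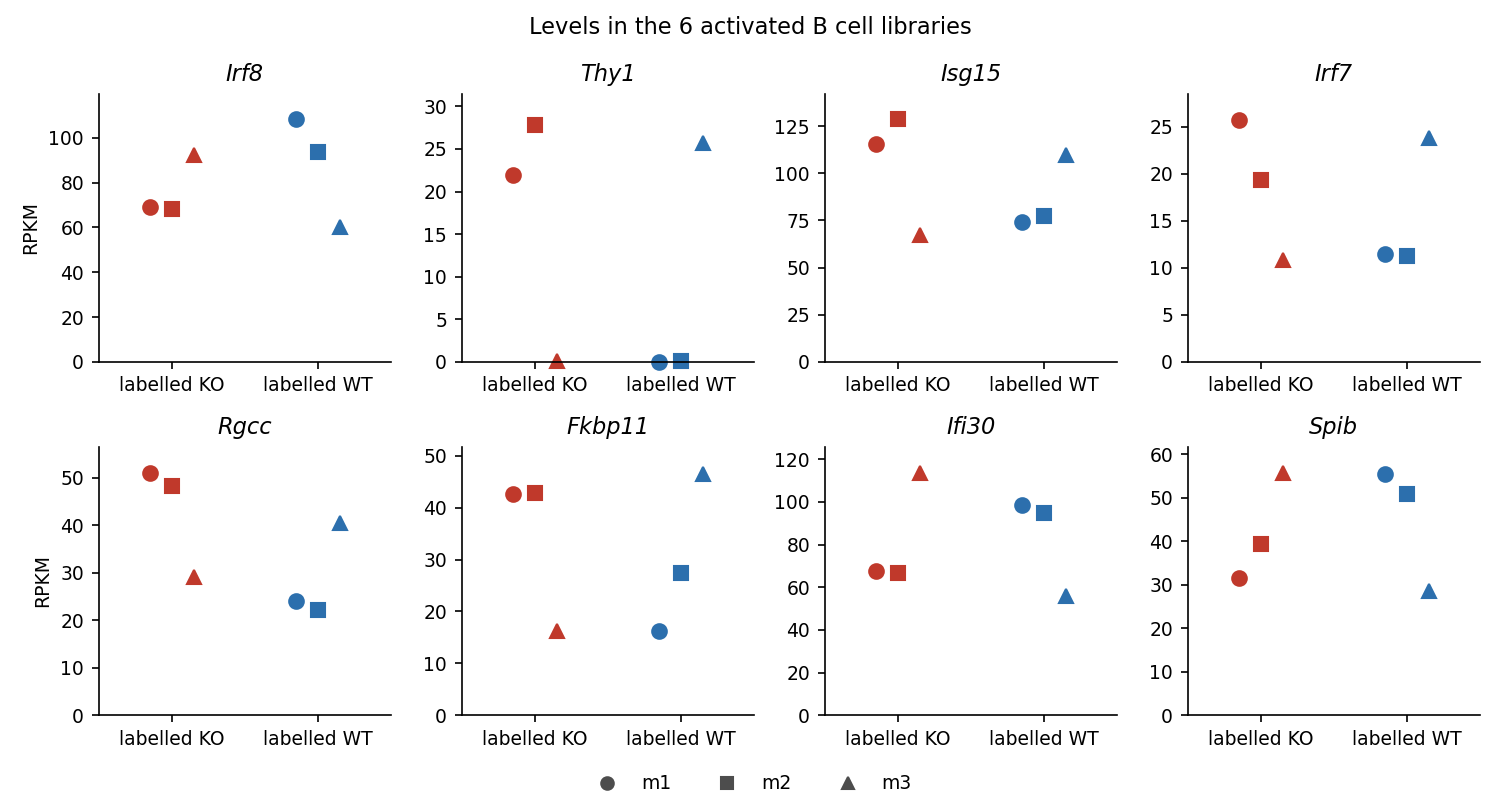
RPKM (vertical axes, from 0) of 8 genes in the 6 activated B cell libraries by label, 1 point per library, with circles for m1, squares for m2 and triangles for m3. In each of the 8 panels the m3 triangles take the reverse order of the m1 and m2 points.

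Sequence upstream of 4 of the genes that rose in KO m1 and m2 is shown first, since many of the named genes are interferon-responsive and IRF family members bind the motifs in capitals. The 4 were picked from called genes that hold a match, so each was bound to show capitals. Of the 51 genes that rose and had a promoter, 7 held the interferon-stimulated response element. Each line is the 120 bases before the start site in RefSeq's annotation of GRCm38.p6, 5′ to 3′ on the gene's strand, for Isg15 (chr4:156200819-156200938, minus strand), Oas1a (chr5:120907526-120907645, minus strand), Tgtp2 (chr11:49064213-49064332, minus strand) and Tnfrsf17 (chr16:11313689-11313808, plus strand).
Isg15: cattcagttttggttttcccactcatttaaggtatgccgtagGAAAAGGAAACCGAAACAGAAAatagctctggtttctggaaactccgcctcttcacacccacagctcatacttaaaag
Oas1a: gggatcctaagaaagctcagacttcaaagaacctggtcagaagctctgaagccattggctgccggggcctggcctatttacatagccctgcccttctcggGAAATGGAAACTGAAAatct
Tgtp2: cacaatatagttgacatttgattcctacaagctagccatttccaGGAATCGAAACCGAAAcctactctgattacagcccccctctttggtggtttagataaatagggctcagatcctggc
Tnfrsf17: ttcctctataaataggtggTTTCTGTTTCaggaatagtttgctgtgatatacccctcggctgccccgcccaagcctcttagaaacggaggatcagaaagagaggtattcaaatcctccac
Capitals mark matches to the interferon-stimulated response element, searched as GAAA, any 2 bases and GAAA, and in Tgtp2 also to the composite ETS-IRF element, searched as GGAA, any 2 bases and GAAA. Both strands were searched, and matches of both motifs can overlap. Isg15 held 3 overlapping response elements, the first base of the farthest at 78 bases before the start site. Oas1a held 2, at 20 and 14 bases before it. Tgtp2 held a composite element at 76 bases and a response element at 70, and the Tnfrsf17 match lies on the other strand at 101 bases. These are letter matches, and binding was not measured here.

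When all 3 pairs were compared as labelled, limma called no gene of 9701 (0%). At an unadjusted p under 0.05 there were 44 genes (0.454%), and limma-voom on recovered reads, an analysis added after seeing the data, also called 0. The KO libraries lay above all WT libraries in 177 genes (1.82%) and below them in 120 (1.24%). Of the 70 genes called in m1 and m2 alone, described next, Gla was the only one whose groups of 3 did not overlap. The lowest unadjusted p, 0.00065, belonged to Fcer1g, the Fc receptor gamma chain, which was chosen after its values were seen. Fcer1g was at 2.73, 2.90 and 3.36 RPKM in KO m1, m2 and m3 and at 1.04, 0.818 and 1.36 in WT m1, m2 and m3, a log2 difference of 0.95 (SE 0.211, n = 3 each, limma adjusted p = 1).

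In m1 and m2 alone, 61 genes rose in KO cells (0.629%) and 9 fell (0.0928%), together 70 genes (0.722%). At an unadjusted p under 0.05 there were 1168 (12%). The genes that rose included interferon-responsive genes and members of the plasma cell programme. The genes that fell included Ifi30, Mpeg1 and Kmo. The median log2 difference of the 61 was 0.82, and 16 of them, Thy1 among them, were past 1. That of the 9 was -0.90. With 2 libraries a group, KO and WT did not overlap in 23.4% of tested genes with KO above and 25.5% with KO below, so separate groups alone are common here. The number of calls rests on single libraries. It was 6 without KO m1, 3 without WT m1, 43 without KO m2 and 53 without WT m2.

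Rgcc, a regulator of the cell cycle, was the gene with the lowest adjusted p after Thy1. Rgcc (Entrez 66214, chromosome 14, 79288750 to 79301635) was at 50.9 and 48.2 RPKM in KO m1 and m2 and at 24.0 and 22.2 in WT m1 and m2, a log2 difference of 1.07 (SE 0.0983, n = 2 each, limma adjusted p = 0.000362). It was at 29.2 in the library labelled KO m3 and at 40.5 in the library labelled WT m3, so that at m3 the order was reversed and both levels lay between those of the m1 and m2 groups. Rgcc was called in all 13 alternative analyses of m1 and m2, as was Thy1, whose call was fixed by the sort.

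Of the 10 largest rises by the naming rule, Thy1 was followed by Nox1, a catalytic subunit of NADPH oxidase. Nox1 was at 5.67 and 3.49 RPKM in KO m1 and m2 and at 0.344 and 0.979 in WT, a log2 difference of 1.75 (SE 0.226, limma adjusted p = 0.00494). Slc1a1, a glutamate transporter, was at 5.19 and 3.93 in KO and 0.722 and 1.07 in WT, a log2 difference of 1.55 (SE 0.223, limma adjusted p = 0.01). Both were expressed at a few RPKM at most, in KO as in WT cells. Tspan15, a tetraspanin that partners the protease ADAM10, was at 5.10 and 3.57 in KO and 0.918 and 1.06 in WT, a log2 difference of 1.41 (SE 0.164, limma adjusted p = 0.00354). C4bp, a complement regulator, rose by 1.20 (limma adjusted p = 0.0254) and Pls1, an actin-bundling plastin, by 1.13 (limma adjusted p = 0.01). The remaining 4 of the 10, Ifit1bl1, Rtp4, Tgtp2 and Tnfrsf17, belong to groups described below.

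At m3, Nox1 was at 0.705 RPKM under the KO label and 3.78 under the WT label. Slc1a1 was at 1.05 and 5.93, and C4bp at 4.96 and 12.3 in the same order. Tspan15 at 0.639 and 1.91 and Pls1 at 0.42 and 1.81 showed the same order at lower levels. For each of these genes the library labelled WT m3 lay above both WT m1 and m2.

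Among the interferon regulatory factors themselves, 8 of 9 in the list were listed and tested, and 1 rose, against 0.629% of all tested genes. Irf7 (Entrez 54123, chromosome 7, 141263183 to 141266499), the factor that amplifies type I interferon responses, was at 25.7 and 19.3 RPKM in KO m1 and m2 and at 11.4 and 11.2 in WT, a log2 difference of 0.92 (SE 0.135, limma adjusted p = 0.01). At m3 it was at 10.8 under the KO label and 23.8 under the WT label. Irf4, which drives plasma cell differentiation, was at 97.3 and 92.6 in KO and 67.6 and 88.8 in WT and was not called (log2 difference 0.29, limma adjusted p = 0.379). For Irf1, Irf5, Irf2, Irf9 and Irf3 the differences were 0.26, -0.24, 0.20, 0.12 and -0.06, none of them called. The ETS partners of IRF8 were not called either. Spi1, which encodes PU.1, differed by -0.04 (limma adjusted p = 0.932), and Spib was at 31.5 and 39.3 RPKM in KO and 55.6 and 51.0 in WT, a difference of -0.58 (limma adjusted p = 0.0895).

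Interferon-stimulated genes, which respond to type I interferon, held 6 members that rose and none that fell among 29 tested. Over all tested genes 0.629% rose. The median log2 difference of the 29 was 0.21, against -0.01 over all tested genes. Of the 29 differences 25 were positive, against 4621 of 9701 (47.6%). The 6 were Rtp4, Irf7, Oas1a, Cmpk2, Isg15 and Isg20. Isg15 (Entrez 100038882), a ubiquitin-like modifier of antiviral defence whose upstream sequence is shown above, was at 115 and 129 RPKM in KO m1 and m2 and 74.1 and 77.6 in WT, a log2 difference of 0.68 (SE 0.105, limma adjusted p = 0.0135). Rtp4, a chaperone induced by interferon, was at 6.10 and 5.57 in KO and 1.93 and 1.62 in WT, a difference of 1.30 (limma adjusted p = 0.0154). Oas1a, a sensor of double-stranded RNA, was at 16.4 and 14.8 in KO and 7.44 and 8.20 in WT, a difference of 0.91 (limma adjusted p = 0.0326). Of these 3, Isg15 was by far the most abundant. Cmpk2 rose by 0.85 and Isg20, an exonuclease of viral RNA, by 0.65 (limma adjusted p = 0.0328 and 0.0227). Not every member moved. Usp18 differed by 0.13, and Ifit1 by 1.39 without being called (limma adjusted p = 0.0639).

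At m3, 24 of the 29 interferon-stimulated genes had a difference opposite in sign to that of m1 and m2, the 6 called genes among them. The median of the 29 was -0.45. Over all tested genes the sign was opposite in 7126 of 9701 (73.5%), so such reversal was common. Levels of interferon-stimulated genes in the m3 libraries varied. Isg15 was at 67.2 RPKM in the library labelled KO m3 and 110 in the library labelled WT m3, close to the WT and the KO levels of m1 and m2 in turn. Oas1a was at 2.11 and 5.99 in the same order, so both m3 libraries were below all of m1 and m2. Ifit1bl1, an Ifit family member at 3.84 and 3.17 in KO m1 and m2 and 0.989 and 0.343 in WT (log2 difference 1.46, limma adjusted p = 0.0135), was at 0.225 and 0.484 at m3. Ifit1bl1 and Oas1a have close paralogs, between which the counting may have split reads, as have the Tgtp and Serpina3 genes.

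Interferon-gamma-inducible GTPases, which attack the vacuoles of intracellular pathogens, held 2 members that rose among 13 tested, with a median of 0.27. These were the neighbouring and near-identical Tgtp2 and Tgtp1. Over all tested genes 0.629% rose and the median was -0.01. Tgtp2 was at 11 and 10.1 RPKM in KO m1 and m2 and at 3.5 and 4.45 in WT, a log2 difference of 1.22 (SE 0.184, limma adjusted p = 0.0118). At m3 Tgtp2 was at 4 under the KO label, within the range of WT m1 and m2, and at 12.8 under the WT label, above both KO m1 and m2. Gbp2, a guanylate-binding protein chosen after its value was seen, differed by -0.03.

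Among genes with a promoter in RefSeq's set, 250 bases before to 50 after the start site, 7 of 51 that rose held the interferon-stimulated response element (13.725%). They were Isg15, Oas1a, Tgtp1, Tgtp2, Tnfrsf17, Ifit1bl1 and Ddx60, of which Tnfrsf17 and Ifit1bl1 passed the filter only through KO m1 and m2. Over the 7868 tested genes with a promoter the share was 3.915%, and over all 27025 listed there it was 3.993%. The composite ETS-IRF element was in 2 of the 51 (3.922%), Tgtp1 and Tgtp2, against 2.885% of tested genes and 3.156% of all. Of the genes that fell, 6 had a promoter and 1 of them, Gpr15, held the response element.

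The plasma cell programme was the list with the largest median difference among those of 6 or more tested genes. Of its 18 tested members, 4 rose and none fell, 17 differences were positive, and the median was 0.55. Over all tested genes 0.629% rose, 47.6% of differences were positive and the median was -0.01. Tnfrsf17, which encodes the survival receptor BCMA, was at 1.56 and 1.79 RPKM in KO m1 and m2 and at 0.249 and 0.220 in WT, a log2 difference of 1.12 (SE 0.19, limma adjusted p = 0.0227). Tnfrsf17 and Cd28 of this list passed the filter only through KO m1 and m2, so their positive signs were fixed by it. Fkbp11, a prolyl isomerase of the secretory pathway, was at 42.6 and 42.9 in KO and 16.2 and 27.4 in WT, a difference of 0.99 (SE 0.194, limma adjusted p = 0.0394). Ell2, an elongation factor that favours the secretory form of immunoglobulin mRNA, was at 42.1 and 37.4 in KO and 23.9 and 28.9 in WT, a difference of 0.58 (limma adjusted p = 0.042). The gap was wider at m1 than at m2 for Fkbp11 and Ell2. Ggh, a lysosomal folate hydrolase, rose by 0.62 (limma adjusted p = 0.0471).

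The factors at the centre of that programme were not called. Prdm1 was at 73.9 and 70.5 RPKM in KO m1 and m2 and 56.7 and 71.4 in WT (log2 difference 0.18, limma adjusted p = 0.631), and its groups overlapped. Xbp1 was at 446 and 394 in KO and 260 and 324 in WT (0.53, limma adjusted p = 0.278). Jchain, the joining chain of secreted antibody, was at 774 and 696 in KO and 323 and 536 in WT (0.82, limma adjusted p = 0.249). For both, the WT libraries differed widely.

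The plasmablast markers fixed for the cell type check overlap this list, and 1 of their 6 tested members, Tnfrsf17, was called. The summed level of the 7 markers was 1438 and 1291 RPKM in KO m1 and m2 and 744 and 1057 in WT m1 and m2, against 2144 to 3781 in plasmablast m1 and m2. It was 1034 in the library labelled KO m3 and 1978 in the library labelled WT m3. Most of each sum came from Jchain and Xbp1, which were not called. Sdc1 stayed below 0.8 RPKM in all 6. In bulk samples, more cells on the way to the plasmablast state and more of these RNAs per cell cannot be told apart.

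Genes of the unfolded protein response and secretory pathway, which fold and move secreted protein, held no called member among 27 tested. All 27 of these differences were positive, with a median of 0.25, against 47.6% positive and a median of -0.01 over all tested genes. Dnajb9, an XBP1 target, was at 42.6 and 35.2 RPKM in KO m1 and m2 and 26.0 and 29.3 in WT (log2 difference 0.47, limma adjusted p = 0.124). Hsp90b1, a chaperone of the endoplasmic reticulum, differed by 0.43 (limma adjusted p = 0.455). In the m3 pair all 27 differences had the opposite sign, with a median of -0.45. Over all tested genes 73.5% had the opposite sign.

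Genes of other B cell states gave few calls. Over all tested genes 0.629% rose and 0.0928% fell. Among 16 marginal zone B cell genes, a subset of innate-like B cells, Rgs10, a regulator of G protein signalling, rose from 6.79 and 7.23 RPKM in WT m1 and m2 to 13.6 and 10.5 in KO (log2 difference 0.69, limma adjusted p = 0.0408). Cr2, the complement receptor CD21, differed by 0.49 (limma adjusted p = 0.338). Among 12 germinal centre genes, Nuggc, a nuclear GTPase, rose by 0.78 (limma adjusted p = 0.0381). No member of 11 follicular genes, 20 genes of mature B cell identity, 24 of B cell receptor signalling, 21 of Toll-like receptor and NF-kB signalling or 13 of the BCL2 family was called. In the last, the pro-apoptotic Bcl2l11 had the largest difference, at 18.3 and 11.5 RPKM in KO and 6.96 and 8.49 in WT (0.84, limma adjusted p = 0.0975). Dusp1, a MAP kinase phosphatase and the only called member among 14 immediate early and stress genes, rose by 0.79 (limma adjusted p = 0.0394).

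The 9 genes that fell included 3 with roles in antigen handling or metabolism that are known for immune cells. Ifi30 (Entrez 65972, chromosome 8, 70762773 to 70766663), a lysosomal thiol reductase that prepares antigen for MHC class II, was at 67.5 and 66.6 RPKM in KO m1 and m2 and at 98.6 and 94.8 in WT, a log2 difference of -0.52 (SE 0.0968, limma adjusted p = 0.0342). Mpeg1, the pore-forming perforin-2, was at 1.05 and 0.179 in KO and 2.04 and 3.5 in WT (-1.25, limma adjusted p = 0.0482). Kmo, an enzyme of tryptophan breakdown, was at 5.83 and 4.68 in KO and 11.4 and 9.92 in WT (-0.90, limma adjusted p = 0.0342). Of these 3, Ifi30 was the most abundant and Mpeg1 varied most between its KO libraries.

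Dkk3, of the dickkopf family of secreted proteins, had the largest fall. It was at 3.29 and 4.13 RPKM in KO and 13.1 and 9.72 in WT, a log2 difference of -1.39 (SE 0.192, limma adjusted p = 0.00833). Rpph1, the RNA of RNase P, fell by 0.94, Gpr15, a trafficking receptor, by 0.93, Dennd4b by 0.73 and the nuclear pore gene Nup210 by 0.55. Gatm, an enzyme of creatine synthesis and the tenth gene by the naming rule, differed by -1.29 and was not called (limma adjusted p = 0.0582).

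Other MHC class II genes did not follow Ifi30 past the threshold. Of 16 tested, Ifi30 was the only one called, and the median log2 difference was -0.10. Ciita, the master regulator of the class, was at 11.9 and 12 RPKM in KO m1 and m2 and 16.8 and 15.3 in WT (-0.39, limma adjusted p = 0.296), and Cd74, the invariant chain, differed by -0.05 (limma adjusted p = 0.969).

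Growth genes had small negative differences and no call. Over all tested genes 5080 of 9701 differences were negative, with a median of -0.01. Of 21 MYC target and ribosome biogenesis genes, 20 differences were negative, with a median of -0.38, and 13 were past an unadjusted p of 0.05, against 12% of all genes. Rrp12, which exports ribosomal subunits, was at 10.1 and 14.7 RPKM in KO m1 and m2 and 20.1 and 18.2 in WT (log2 difference -0.61, limma adjusted p = 0.123). Mybbp1a was at 29.7 and 38.6 in KO and 49.8 and 50.02 in WT (-0.55, limma adjusted p = 0.0803). Of 20 DNA replication genes, 19 differences were negative with a median of -0.19, the largest in Mcm3, a subunit of the replicative helicase (-0.42, limma adjusted p = 0.151). Cytokine genes were not called, and Ccl22 showed how far single libraries could stand apart, at 79.1 RPKM in the library labelled KO m3 against 3.76 to 23.1 in the other 5.

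**Figure D2:**
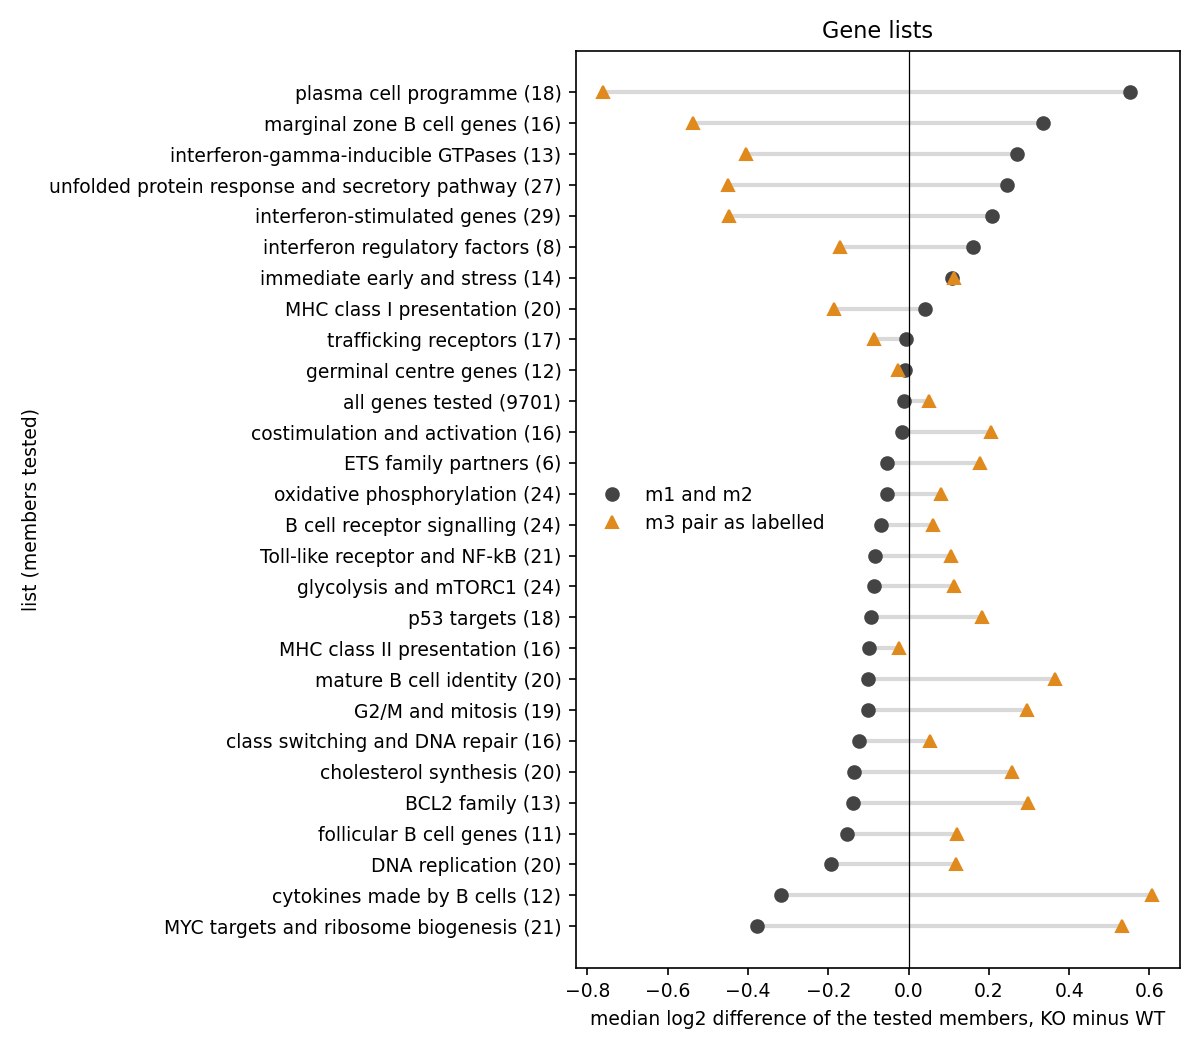
Median log2(RPKM + 1) difference, KO minus WT (horizontal axis), of the tested members of each list with 6 or more of them (vertical axis, number in brackets), for m1 and m2 (circles) and for the m3 pair as labelled (triangles). The plasma cell programme stands at 0.55 and -0.76 and MYC targets at -0.38 and 0.53, while all tested genes stand at -0.01 and 0.05.

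The m3 pair by itself has 1 library a side and no test. There, 122 genes differed by 1 or more on the log2 scale (1.26%), 49 higher (0.505%) and 73 lower (0.752%) in the library labelled KO, against 79 in the m1 pair and 25 in the m2 pair. In the mean of m1 and m2 there were 31 (0.32%). For 69 of the 70 genes called in m1 and m2 the m3 difference had the opposite sign (98.6%), against 73.5% of all tested genes. Thy1, which led to the pair being set apart, is counted among the 70 and among the 61 that rose. Of the 61 genes that rose, the library labelled WT m3 was above both WT m1 and m2 in 57, and the library labelled KO m3 was below both KO m1 and m2 in 60. Of the 9 that fell, the corresponding counts were 8 and 9. Over all tested genes the library labelled WT m3 was above both WT m1 and m2 in 2529 of 9701. The library labelled KO m3 was below both KO m1 and m2 in 4811 of 9701. For the direction of the genes that fell, counts over all tested genes are not given, so the 8 and 9 cannot be set against a share. The median m3 difference was -0.81 for the 61 and 1.01 for the 9, sizes close to those of m1 and m2.

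The exception was Gla, which encodes the lysosomal enzyme alpha-galactosidase. Gla was at 6.22, 5.90 and 4.81 RPKM in KO m1, m2 and m3 and at 3.03, 3.43 and 4.21 in WT m1, m2 and m3, so that it was higher in KO in each pair as labelled (log2 difference at m3 0.16). Fkbp11 and Ifi30 were reversed at m3, as were the rest. The m3 difference of Fkbp11, -1.46, was larger in size than the median of the 61 (-0.81), and that of Ifi30 was 1.01. Fkbp11 was at 16.2 in the library labelled KO m3 and 46.4 in the library labelled WT m3, and Ifi30 at 114 and 55.9.

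**Figure D3:**
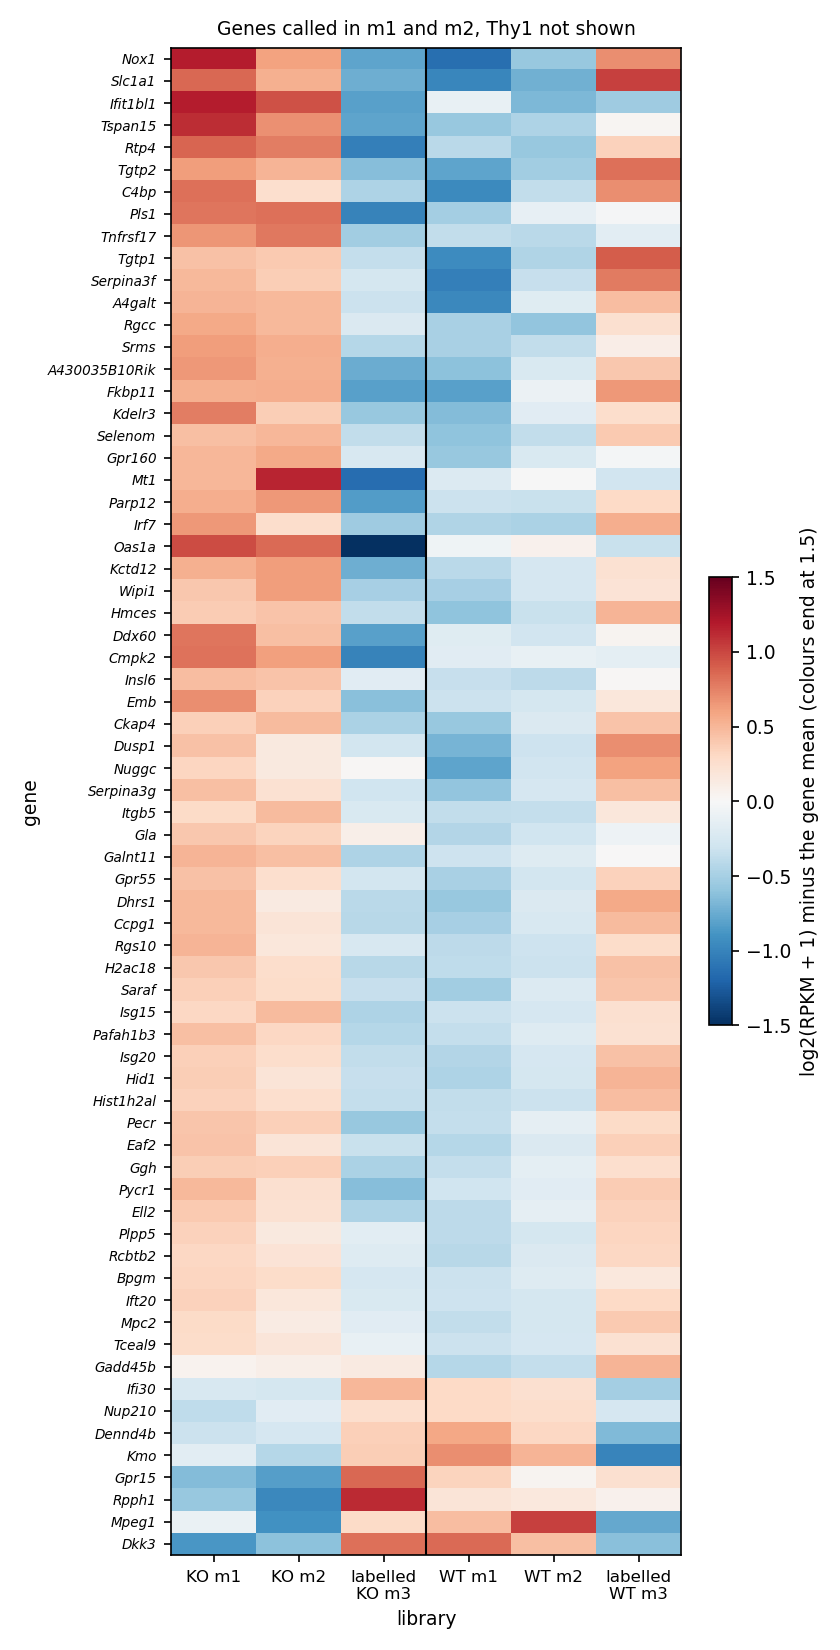
log2(RPKM + 1) minus the gene's mean over the 6 libraries (colour, red above and blue below the mean) of 68 of the genes called in m1 and m2, Thy1 not shown (rows, in order of their difference), in each library by label (columns). Most rows that are red in KO m1 and m2 are red again in the library labelled WT m3 and blue in the library labelled KO m3.

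Over all 9701 genes the m3 difference ran against that of m1 and m2. The log2 differences of m1 and m2 correlated at Pearson r = 0.454, and their mean correlated with the m3 difference at -0.679 (Spearman rho -0.642). These are correlations across genes of log2 differences, which are not independent replicates, and they were not tested. Levels of whole libraries, which share most of the B cell transcriptome, pointed the same way. The library labelled WT m3 correlated with KO m1 and m2 at 0.986 and 0.988 and with WT m1 and m2 at 0.974 and 0.983. The library labelled KO m3 correlated with WT m1 and m2 at 0.988 and 0.989 and with KO m1 and m2 at 0.971 and 0.980. How the m3 libraries came to differ from their labels was not tested.

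**Figure D4:**
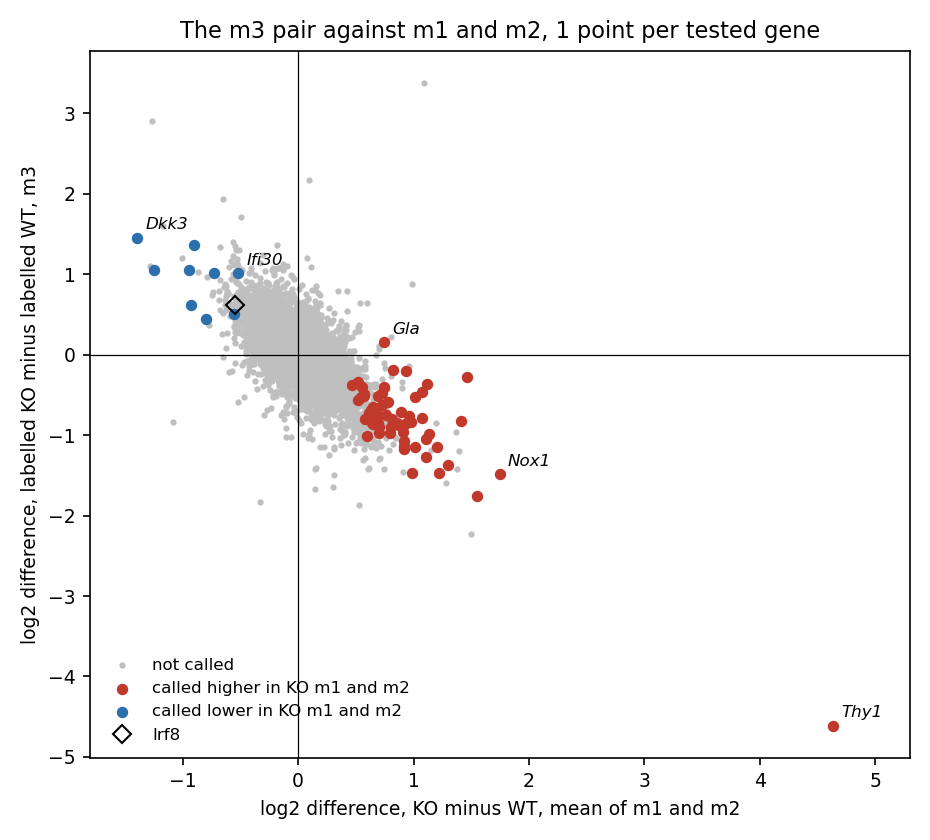
log2(RPKM + 1) difference KO minus WT in the m3 pair as labelled (vertical axis) against the mean of m1 and m2 (horizontal axis), 1 point per tested gene, with the 61 genes called higher in red, the 9 called lower in blue and Irf8 as a diamond. Of the coloured points, Gla is the exception that lies on the same side of 0 on both axes.

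Plasmablasts are the cell state most like activated B cells in the series, so the difference between KO and WT was compared between both states at m1 and m2. The plasmablast libraries labelled KO m3, with an estimated 46200 reads, and WT m3 do not enter, the latter not being analysed here. Plasmablast WT m2 does enter, with an estimated 4300000 reads, fewer than either activated m3 library. In plasmablasts 6 genes were called (0.0618%). Of these, the sort marker Thy1 and Emb, an immunoglobulin superfamily partner of lactate transporters, also rose in activated cells. Of the 61 genes that rose in activated cells, 52 had a positive difference in plasmablasts (85.2%), against 60.5% of all tested genes, with a median of 0.13 against 0.04. Of the 9 that fell, 6 had a negative one (66.7%), where 60.5% of all tested genes had a positive one. Isg15 was at 106 and 115 RPKM in KO plasmablasts and at 81.1 and 84.2 in WT (log2 difference 0.41, limma adjusted p = 0.308), whereas Fkbp11, at 147 and 165 in KO and 132 and 179 in WT, overlapped. In both, plasmablasts were not past the threshold.

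The interaction contrast, the activated difference minus the plasmablast difference, called 4 genes (0.0412%), Rgcc, Spib and Shisa8 among them. Rgcc was at 176 and 171 RPKM in KO plasmablasts and 169 and 169 in WT, far above its activated level, and the contrast was 1.03 (SE 0.139, limma adjusted p = 0.0359). Spib was at 1.45 and 1.55 in KO plasmablasts and 0.464 and 0.281 in WT, opposite in direction to activated cells, and the contrast was -1.45 (SE 0.206, limma adjusted p = 0.0359). Shisa8 was at 14.4 and 19.6 in KO and 29.2 and 23.8 in WT activated cells and at 16.4 and 15.9 in KO and 9.11 and 9.61 in WT plasmablasts, with a contrast of -1.35 (SE 0.207, limma adjusted p = 0.0498). Spib and Shisa8 were thus lower in KO than in WT activated cells and higher in KO than in WT plasmablasts. Within each state these differences were not called. For Spib the limma adjusted p was 0.0895 in activated cells and 0.0617 in plasmablasts, and for Shisa8 0.0796 and 0.143. Mir155hg (-1.34, limma adjusted p = 0.0717) and Nox1 (1.93, limma adjusted p = 0.0733) were next and were not called. The number of calls was 0 without activated KO m1 or WT m1, 8 without KO m2 and 11 without WT m2.

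**Figure D5:**
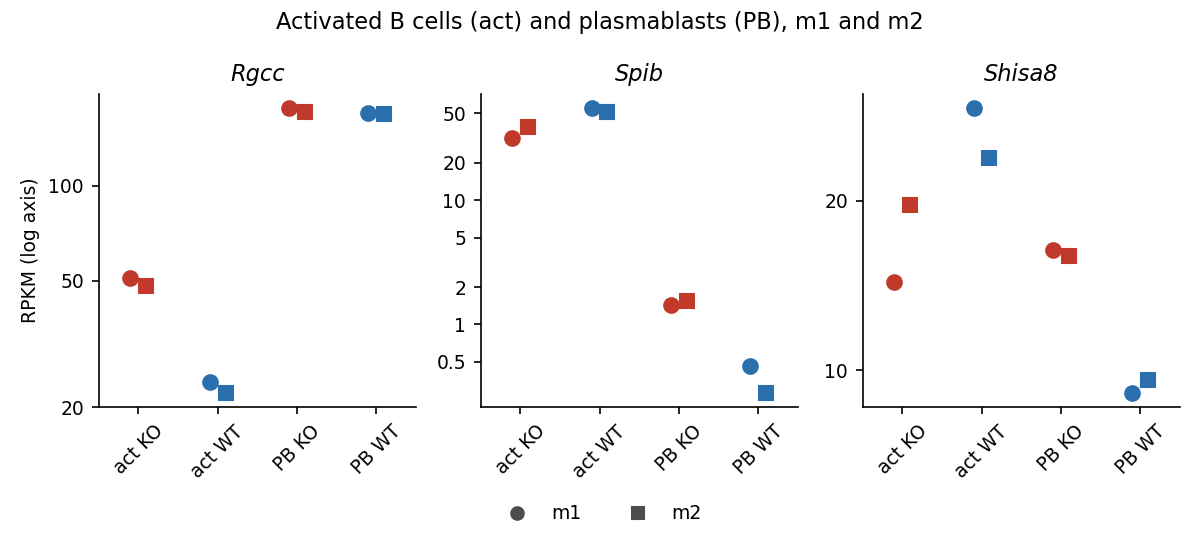
RPKM on log axes of 3 genes whose KO minus WT difference differed between activated B cells (act) and plasmablasts (PB), 1 point per m1 or m2 library, with KO in red and WT in blue. In Spib and Shisa8 the KO points lie below WT in activated cells and above WT in plasmablasts.

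Naive B cells of the series, in which both guides were used, had 191 called genes of 10137 (1.88%), averaged over the guides. Of the 70 genes called here, 52 were tested in naive cells and 9 of these were called with the same sign (17.3%), which is 5.7% of the 158 naive calls tested here. Apart from Thy1, the sort marker, they were Isg15, Oas1a, Ddx60, Tspan15, Rgs10, Insl6, Emb and Kmo. Tspan15 had a naive log2 difference of 2.24 (limma adjusted p = 0.00872) beside 1.41 in activated cells, and Kmo one of -2.29 (limma adjusted p = 0.0468) beside -0.90. The tables were normalized separately, so the difference between naive and activated cells was not tested. Pafah1b3 was called in both states in opposite directions, at 0.65 in activated and -1.04 in naive cells. Without the A libraries of the guide 1 arm, of which KO A had 1405 genes listed at 0, an analysis added after seeing the data, 10 of the 52 were called with the same sign (19.2%) and the naive calls numbered 340 (3.35%). Kmo was then at -1.66 and Tspan15 at 2.23.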

How the data were processed

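PolyA RNA of sorted spleen B cells was sequenced from SMART-seq v4 and Nextera XT libraries, per the labels' protocols. The authors deposited RPKM values, with naive and cultured cells in separate tables. The submitters' processing notes name STAR as a tool and mm10 as the genome build. The STAR version, the counting tool, its use of strand and the rule for listing genes are not given in the sources used here. Gene lengths are a column of the deposited tables.

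From these, log2(RPKM + 1) was fitted by limma 3.58.1 (R 4.3.3), with a mean per group and a trend in the spread. Of 10574 listed genes, 9701 at 1 RPKM or more in at least 2 of the 6 activated libraries were tested and 873 were not. Plasmablast m1 and m2 libraries entered the fits for the spread (10 libraries for 3 pairs, 8 for m1 and m2), and plasmablast KO m3 was left out. Reads per library were estimated from the steps between low RPKM values, all of which lay within 0.2 of a whole read, so intervals for counting error are not given. Symbols turned into dates (16 in each table) were restored from the identifier, which also gave GRCm38 coordinates from a RefSeq table for 10568 cultured genes. No value column was left unmapped. A few genes are not reported here.

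Named genes were Irf8, Thy1 and the IRF family, the 10 largest differences in each direction among called genes (filled up to 10 by non-overlapping genes at an unadjusted p under 0.05), the 6 lowest adjusted p of the interaction, and up to 6 called members, or the 2 largest differences, of each list. Some further genes are given for their role in a list or, as with Ifit1, Gla and Ddx60, after their values were seen. The members, lists and comparisons were chosen with earlier results of these data known. Alternatives were another pseudocount (0.1), filters, scalings, no trend, a replicate block, other sets of libraries, leaving out each library, and limma-voom on recovered reads, chosen after seeing the data. The fits were tested on simulated data.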

Additional observations from a re-analysis of the deposited data

Results flagged for a closer look

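Rgcc, Spib and Shisa8 call for a closer look because the difference between KO and WT was not the same in activated B cells and plasmablasts, by the interaction contrast of limma over m1 and m2. The contrast was 1.03 for Rgcc, -1.45 for Spib and -1.35 for Shisa8 on the log2(RPKM + 1) scale (limma adjusted p = 0.0359, 0.0359 and 0.0498). Spib was at 1.55 RPKM or less in all 4 plasmablast libraries compared.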

How the results depend on the processing

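The comparison of 3 pairs as labelled gave 0 calls in every other alternative run and 70 for m1 and m2 alone. The 70 became 120 with quantile normalization, 32 with no trend in the spread (28 higher, 4 lower), 164 with the activated libraries only (122 higher, 42 lower), 115 with limma-voom on recovered reads (86 higher, 29 lower), and 3 to 53 with 1 library left out. The 4 calls of the interaction became 0 with no filter, with median-centred libraries, with quantile normalization, with no trend in the spread and with limma-voom, and 0 to 11 with 1 library left out. With a pseudocount of 0.1 the genes past a log2 difference of 1 at m3 were 320 in place of 122.

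With the m number as a replicate block, m1 and m2 gave 103 calls (90 higher, 13 lower) and the interaction 1, Rgcc (limma adjusted p = 0.0475), with Spib at 0.059 and Shisa8 at 0.0739. Libraries of KO and WT with the same number deviated from their group means with r of -0.19 (m1), -0.055 (m2) and -0.24 (m3). Those means include the m3 libraries, and an m3 pair that runs against its labels by itself lowers such r. These values therefore cannot show whether the numbers pair KO with WT. The main fits did not pair them. Over m1 and m2 alone, deviations of same-numbered libraries correlated at -0.036 to 0.337 between groups, the highest for activated with plasmablast KO, and 2 pairs are too few to settle whether the numbers pair these.

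Of the 70 called genes, 22 were called in all 9 alternatives that left out no library. Of 32 named genes called in m1 and m2, 30 lost the call in at least 1 alternative, and of 59 not called, 8 gained it. No named gene that was called changed direction. Leaving out 1 library turned the direction in 8 genes that were not called. Their lowest and highest log2 differences were -0.1621 to 0.0403 for Irf3, -0.593 to 0.0066 for Plk1, -0.4731 to 1.2441 for Slc16a3, -0.0412 to 0.6505 for Prf1, -0.5207 to 0.0426 for Flt3, -0.1145 to 0.2909 for Hbb-bt, -0.3324 to 0.014 for Kdm5d and -0.2913 to 0.1648 for Uty. The m3 libraries were the shallowest activated libraries, and without a second library of each kind their differences have no replicate check. The causes of these changes were not tested.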
